A study of Mus musculus with 96 samples.

Results

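The 10 genes described here carry the liver's bile acid and sterol traffic: the synthesis enzymes Cyp7a1, Cyp8b1, Cyp27a1 and Cyp7b1, the bile acid carriers Abcb11 and Slc10a1, the sterol exporters Abcg5 and Abcg8, and the nuclear receptors Nr1h4 and Nr0b2. They were taken as all probes whose platform annotation named one of these symbols, which gave 10 of the 16593 named genes and 12 of the 25697 probes on the Illumina bead arrays. Cyp27a1 had 3 probes and every other gene had 1. The series holds 96 arrays of 4 tissues of male mice, and each tissue has 4 groups of 6 arrays. Mice of the SIRT1Tg group were labelled SIRT1Tg/Tg and ate a low fat diet ad libitum. Mice of the CR group were WT (C57/Bl6) and were kept on caloric restriction, labelled EODF and not expanded in the labels, for 3 months. Mice of the EX group were WT (C57/Bl6), ate the low fat diet ad libitum and had a running wheel cage for 10 weeks. Mice of the WT group were C57/Bl6 and ate the low fat diet ad libitum with no further challenge. All groups shared a fast of 12 hours that ended when tissues were taken at 8 in the morning. The sources used here do not give age, nor, for SIRT1Tg mice, the strain or the promoter of the transgene.

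Bile acids are made from cholesterol in hepatocytes. The classic pathway begins with Cyp7a1 and the alternative pathway with Cyp27a1, and Cyp8b1 sets how much of the product becomes cholic acid. Bile acids leave the hepatocyte for bile through Abcb11 and come back from portal blood through Slc10a1, while cholesterol and plant sterols are pumped into bile by Abcg5 and Abcg8, which work as a heterodimer. The bile acid receptor Nr1h4 (FXR) induces Nr0b2 (SHP), and Nr0b2 represses Cyp7a1 and Cyp8b1. Abcg5 and Abcg8 are known targets of the oxysterol receptors (LXR).

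The promoter windows of the genes that differed most in CR are printed because Abcg5 and Abcg8, both higher in CR livers, are divergent neighbours with start sites 110 bases apart, and because Cyp8b1 was lower there. Sequences are RefSeq's, build GRCm38.p6, from 250 bases before to 50 after the start, read 5′ to 3′ on the gene's own strand. The Abcg8 window is chr17:84682871-84683170 on the plus strand, and the minus-strand Abcg5 window shares 209 of its bases. Capitals in it mark the GATA motif AGATAA on either strand, where TTATCT is its reverse complement. The Cyp8b1 window is chr9:121916256-121916555 on the minus strand. Capitals there mark CAAAGTCCA, a motif described for the receptor HNF4A, and the TATA motif TATAAA.
Abcg8: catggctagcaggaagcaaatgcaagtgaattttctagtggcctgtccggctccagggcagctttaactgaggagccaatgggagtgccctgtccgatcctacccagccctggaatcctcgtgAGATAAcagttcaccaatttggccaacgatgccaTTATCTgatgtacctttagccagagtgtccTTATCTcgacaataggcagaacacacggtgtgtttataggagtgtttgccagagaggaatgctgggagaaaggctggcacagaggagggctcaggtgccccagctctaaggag
Cyp8b1: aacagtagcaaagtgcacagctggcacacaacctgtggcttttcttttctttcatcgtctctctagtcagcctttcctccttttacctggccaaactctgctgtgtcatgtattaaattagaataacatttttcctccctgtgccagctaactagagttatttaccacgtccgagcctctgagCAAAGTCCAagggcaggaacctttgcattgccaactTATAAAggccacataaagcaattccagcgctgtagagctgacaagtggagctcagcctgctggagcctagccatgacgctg
The 3 matches to AGATAA began 127, 93 and 63 bases before the Abcg8 start. This motif occurred in 11.2% of all 32851 promoter windows, on either strand. In the Cyp8b1 window CAAAGTCCA began 67 bases and TATAAA 31 bases before the start. CAAAGTCCA occurred in 0.475% of all windows and TATAAA in 13.6%. The motifs do not overlap each other in these windows as marked. Of the 8 genes with a window, which have 10 windows between them, AGATAA was also held by Abcg5, whose window overlaps that of Abcg8, and by Nr1h4, and only Cyp8b1 held CAAAGTCCA. AGGTCA, the core site of many nuclear receptors, was in windows of Abcb11, Nr1h4 and Slc10a1 and in 16.3% of all windows. The direct repeat of that core spaced by 4 bases (LXR) and its inverted repeat spaced by 1 (FXR) were in none of these windows, and in 0.0152% and 0.0396% of all.

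Levels below are log2 signals after background correction and quantile normalisation over the 24 liver arrays, and each is compared only with the same probe on other arrays. Of the 10 genes, 9 were detected on at least 6 liver arrays and tested among 9973 features. The Nr0b2 probe was not above background on any of the 24 liver arrays. The Slc10a1 probe was dim and was detected on 23 of 24. In bulk liver, fewer cells of a type and less RNA per cell cannot be told apart.

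The liver array labelled liver_1953_SiRT1 stood apart from the other 23. It had 5841 probes detected and a mean signal of 135, against 10215 to 12752 probes and 238 to 353 on the others. The Sirt1 probe read 4.48 on that array and 7.34 to 7.65 on the other 5 SIRT1Tg arrays, against 5.77 to 6.30 on the 6 WT arrays. The Sirt1 probe was detected on 5 of the 6 SIRT1Tg arrays. The Sirt1 level of liver_1953_SiRT1 does not match its label, but it lies below WT too. With so few probes detected, this array cannot show whether the label is wrong. For the 9 tested genes, changes in SIRT1Tg against WT are given with and without it. Levels, and values of genes from other lists, include it unless stated. Animal numbers form a lower series, A, and a higher series, B, and the sources used here do not say what they mean. SIRT1Tg and WT have 3 animals in each, CR lies wholly in B and EX wholly in A, so number series was a term in the fit. Of the liver slides, 1 held arrays of both CR and WT, 1 of EX and WT, 2 of SIRT1Tg and WT and 5 of CR and EX. No liver slide held arrays of SIRT1Tg together with CR or EX. Each slide pair with WT set animals of different number series against each other, so condition and series cannot be told apart within it. The hepatocyte markers summed to 15.80 to 16.04 in SIRT1Tg, 15.79 to 15.99 in CR, 15.86 to 16.07 in EX and 15.72 to 15.88 in WT livers. Fgb and Tat, 2 of the 9 on the array, were not detected on any liver array, and the Alb probe was dim (WT mean 4.64). Signals were summed before the log, so the sum mostly follows bright probes such as Apoa1, Apoa2 and Ttr (WT means 13.87, 13.80 and 13.69). Of 10 markers of other tissues, Acta1, Ckm, Fabp2 and Ucp1, which mark muscle, gut and brown fat, were not detected on any liver array. Myh4 and Plin1 were detected on 1 array each, Adipoq on 4 and the pancreatic Ctrb1 on 5. The pancreatic genes Cela2a and Amy2a5 were detected on 14 and 23 arrays, at up to 5.19 and 6.92, and their part in the results was not tested.

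**Figure D1:**
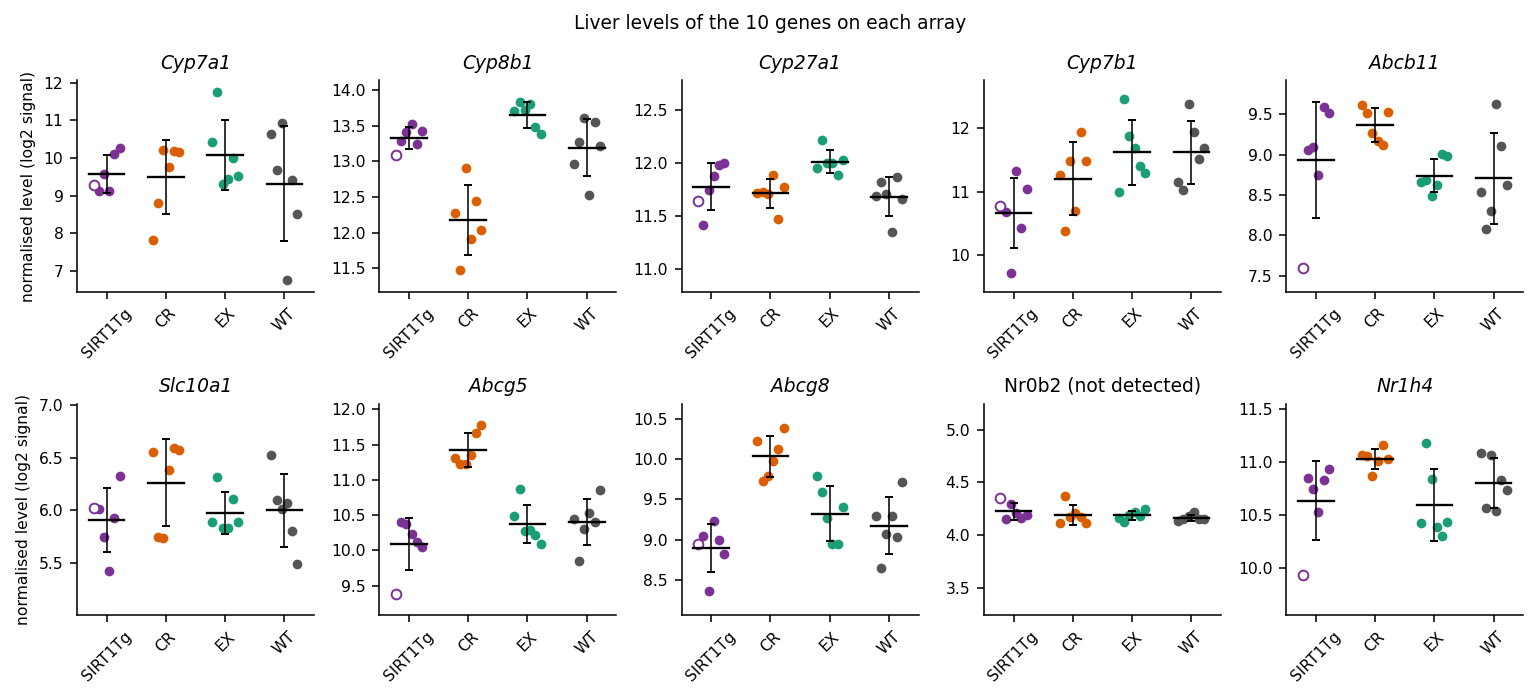
Normalised liver level (log2 signal) of each of the 10 genes on every array, by group; points are arrays, bars the mean and SD of 6 arrays, and the open point is liver_1953_SiRT1. Abcg5 and Abcg8 on all 6 CR arrays lie above all 6 WT arrays, Cyp8b1 in CR lies low, and Cyp7a1 spreads over several log2 units within groups.

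In CR livers a sterol exporter gene was called higher than in WT and a bile acid hydroxylase gene lower. In CR against WT livers, 2 of the 9 tested genes passed an adjusted p of 0.05, Abcg5 upward and Cyp8b1 downward, where 0.271% of all 9973 features passed. Both calls lay near the threshold. Leaving out single arrays lost the Abcg5 call in 13 and the Cyp8b1 call in 18 of 24 fits, and median scaling lost both. In SIRT1Tg against WT, 0 of 9 passed in limma, with all features at 0.0602%, and likewise 0 of 9 without array liver_1953_SiRT1, with all features at 0.211%. In EX against WT, 0 of 9 passed, with all features at 0.0201%. At an unadjusted p under 0.05 the count was 1 of 9 in SIRT1Tg (10.2% of all features), 3 of 9 in CR (6.66%) and 2 of 9 in EX (8.63%). Without array liver_1953_SiRT1 it was 2 of 9 (12.8%), 3 of 9 (9.16%) and 1 of 9 (10.4%). The median change over the 9 genes was -0.09 in SIRT1Tg, 0.28 in CR and 0.29 in EX, beside -0.02, 0.01 and 0.02 over all features. These comparisons share the same 6 WT arrays.

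**Figure D2:**
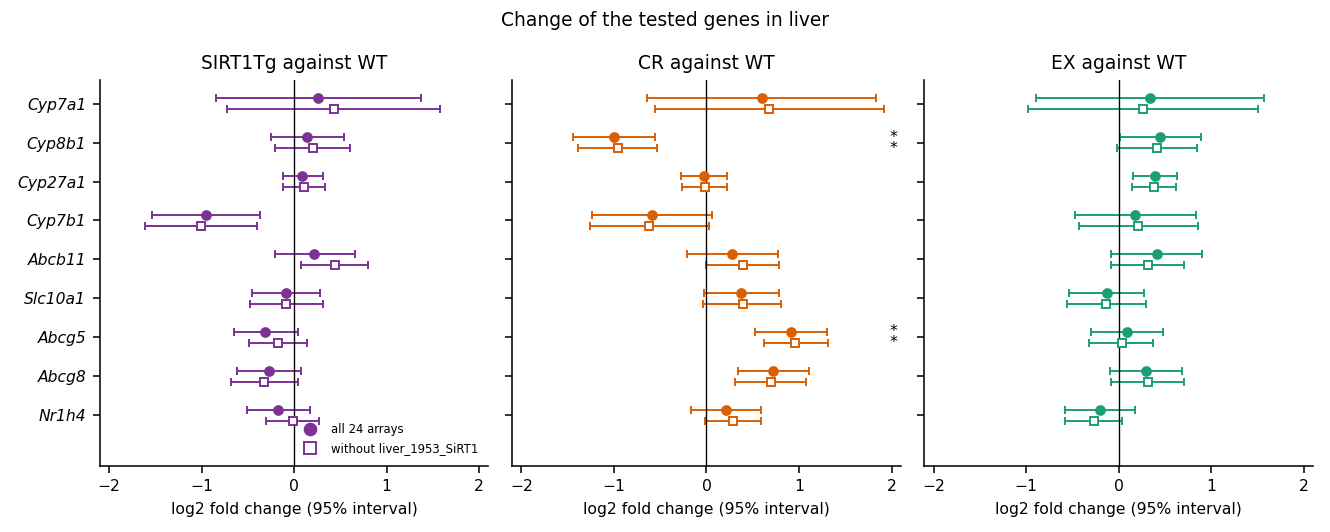
Log2 fold change against WT with its 95% interval for the 9 tested genes, in SIRT1Tg, CR and EX livers; filled circles use all 24 arrays, open squares leave out liver_1953_SiRT1, and stars mark an adjusted p under 0.05. Only Cyp8b1 (-1.0) and Abcg5 (0.91), both in CR, carry a star.

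Cyp7a1, the rate-limiting enzyme of the classic pathway, did not pass in any comparison, and its arrays scattered widely. It read 9.11 at the lowest, 9.43 at the median and 10.27 at the highest in SIRT1Tg livers, 7.81, 9.97 and 10.22 in CR livers and 9.31, 9.76 and 11.76 in EX livers, against 6.75, 9.54 and 10.92 in WT livers. All 4 groups overlap, and the WT range spans the SIRT1Tg and CR ranges. The residual SD of Cyp7a1 was 1.03, at percentile 99.7 of the liver features, whose median was 0.22. The log2 change in SIRT1Tg was 0.26 ± 0.54 (SE, 95% interval -0.84 to 1.37), or 0.43 (-0.73 to 1.58) without array liver_1953_SiRT1. It was 0.60 ± 0.60 (-0.64 to 1.83) in CR and 0.34 ± 0.60 (-0.90 to 1.57) in EX. The upper limits lie beyond a log2 change of 1 in each comparison, so a 2-fold increase lies within all 3 intervals, while no lower limit reached a 2-fold decrease. The lowest WT array, liver_2226_WT, decides the sign in CR: without it the change was -0.12.

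The Cyp7a1 difference of SIRT1Tg mice ran in opposite directions in the 2 number series. In series A it read 9.13, 9.28 and 9.57 in SIRT1Tg livers, against 9.67, 10.63 and 10.92 in WT livers, and the groups did not overlap, which 8.13% of all features also showed. The middle SIRT1Tg value is array liver_1953_SiRT1, and without it the groups again did not overlap, as for 21.5% of all features. In series B it read 9.11, 10.11 and 10.27 in SIRT1Tg livers, against 6.75, 8.51 and 9.41 in WT livers, and they overlapped. Fitted within each series, the log2 change was -1.10 in A (adjusted p = 0.775) and 1.59 in B (adjusted p = 0.409). Whether the series differ in this change was not tested. The series term for Cyp7a1 over all arrays was -0.84 ± 0.54 for B minus A (adjusted p = 0.414).

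Cyp8b1, the hydroxylase on the way to cholic acid, fell in CR livers. It read 11.47 at the lowest, 12.16 at the median and 12.91 at the highest in CR livers, against 12.53, 13.24 and 13.61 in WT livers. Each of the 6 CR arrays was below the WT mean, and the ranges overlapped, since the highest CR array exceeded the lowest WT array. The log2 change was -1.0 ± 0.21 (95% interval -1.44 to -0.56), 0.498 of the WT level (limma, Benjamini-Hochberg adjusted p = 0.0426). Without array liver_1953_SiRT1 it was -0.96 (adjusted p = 0.04). The adjusted p lay near the threshold: leaving out single arrays kept the change between -1.22 and -0.86, and 6 of 24 such fits stayed under 0.05. On the slide that held an array of each group, CR minus WT was -0.69, between animals of different number series.

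Cyp8b1 did not pass in SIRT1Tg or EX livers. It read 13.09, 13.35 and 13.53 in SIRT1Tg livers and 13.38, 13.71 and 13.84 in EX livers (lowest, median, highest). The SIRT1Tg change was 0.14 ± 0.19 (adjusted p = 0.83), or 0.20 (adjusted p = 0.688) without array liver_1953_SiRT1. The EX change was 0.45 ± 0.21 (95% interval 0.01 to 0.89, adjusted p = 0.572), with all 6 EX arrays above the WT mean. Without array liver_1953_SiRT1 the EX change was 0.41 (-0.02 to 0.84, adjusted p = 0.495).

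Cyp27a1, the mitochondrial sterol hydroxylase of the alternative pathway, varied little. On its brightest probe it read 11.42, 11.81 and 12.00 in SIRT1Tg livers, 11.47, 11.73 and 11.89 in CR livers and 11.89, 12.00 and 12.22 in EX livers, against 11.35, 11.70 and 11.87 in WT livers. Every EX array lay above every WT array, which 0.301% of all features also showed in that comparison. The EX change was 0.39 ± 0.12 (95% interval 0.15 to 0.63) and did not pass over all features (adjusted p = 0.44). The other 2 probes gave 0.32 and 0.36 in EX, with overlapping arrays. Changes in SIRT1Tg (0.09 ± 0.11) and CR (-0.03 ± 0.12) had intervals within 0.31 of 0 on either side on that probe, and SIRT1Tg gave 0.11 without array liver_1953_SiRT1. The probes disagreed in SIRT1Tg: the other 2 gave 0.11 and 0.28 (95% interval of the second -0.01 to 0.57), and 0.12 and 0.40 (0.15 to 0.66, adjusted p = 0.218) without that array.

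Cyp7b1, the oxysterol hydroxylase of the alternative pathway, was the gene of lowest p in SIRT1Tg, though it did not pass. It read 9.73, 10.73 and 11.32 in SIRT1Tg livers, 10.38, 11.37 and 11.93 in CR livers and 10.99, 11.55 and 12.45 in EX livers, against 11.03, 11.60 and 12.37 in WT livers. All 6 SIRT1Tg arrays were below the WT mean, with overlap. The SIRT1Tg change was -0.95 ± 0.28 (95% interval -1.53 to -0.37, unadjusted p = 0.00252, adjusted p = 0.244), and -1.01 (adjusted p = 0.195) without array liver_1953_SiRT1. It was -1.14 in series A alone and -0.76 in series B alone. On the slides holding an array of each group SIRT1Tg minus WT was -2.20 and -0.60, each between animals of different number series. The CR change was -0.59 ± 0.31 (adjusted p = 0.813) and the EX change 0.18 ± 0.31 (adjusted p = 0.872).

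Abcg5 and Abcg8, the partners of the sterol exporter, were both higher in CR livers, and Abcg5 passed the threshold. Abcg5 read 11.22 at the lowest, 11.33 at the median and 11.78 at the highest in CR livers, against 9.85, 10.42 and 10.85 in WT livers. Abcg8 read 9.73, 10.05 and 10.39 in CR livers, against 8.65, 9.18 and 9.71 in WT livers. For both genes all 6 CR arrays lay above all 6 WT arrays, a separation that 1.31% of all features showed. Abcg5 rose by 0.91 ± 0.19 (95% interval 0.52 to 1.30), a 1.88-fold difference (limma, adjusted p = 0.0377). Without array liver_1953_SiRT1 the change was 0.96 (adjusted p = 0.00667).

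The Abcg8 change in CR was 0.72 ± 0.19 (95% interval 0.34 to 1.11, 1.65-fold) and did not pass (adjusted p = 0.131, or 0.11 without array liver_1953_SiRT1). Leaving out single arrays, 11 of 24 fits kept Abcg5 under 0.05 and 0 of 24 took Abcg8 under it, while the changes stayed between 0.84 and 1.02 and between 0.63 and 0.85. In animals of series B alone the CR changes were 0.81 for Abcg5 (adjusted p = 0.0204) and 0.69 for Abcg8 (adjusted p = 0.0862). On the slide with an array of each group the differences were 0.87 and 0.93, between animals of different number series.

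**Figure D3:**
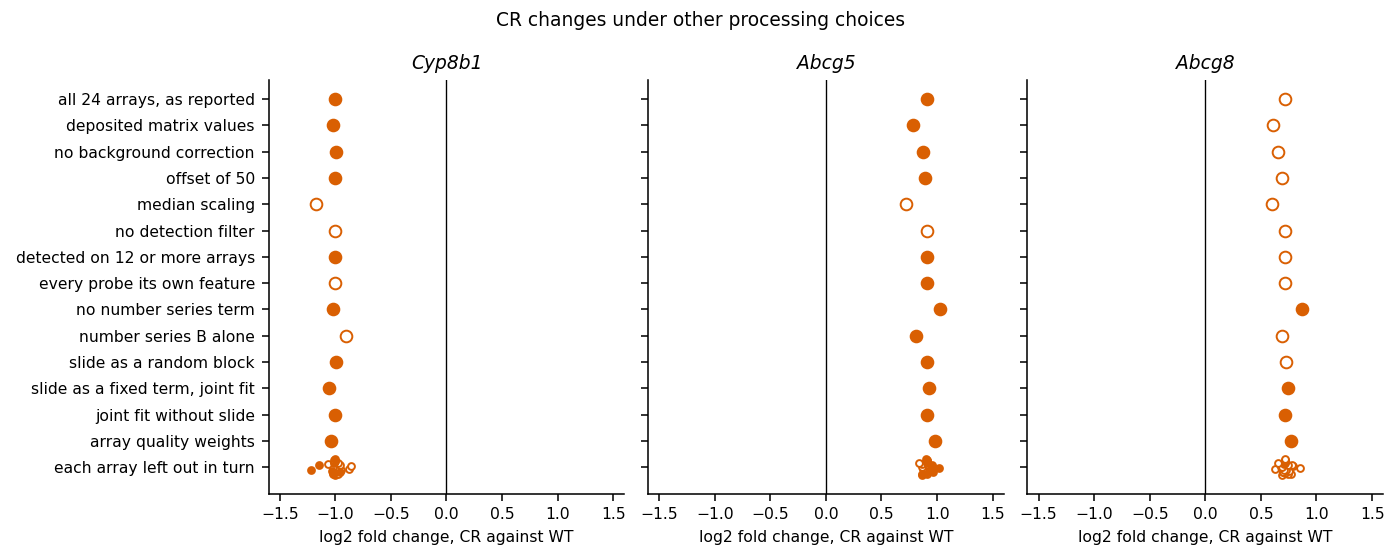
Log2 fold change of Cyp8b1, Abcg5 and Abcg8 in CR against WT livers as reported, under each other processing choice, and with each of the 24 arrays left out; filled points have an adjusted p under 0.05 and open points do not. The direction is the same throughout for these 3 genes, and 0 of them pass with median scaling or with no detection filter. Points of all 3 fall on both sides of the threshold, though Abcg8 does not pass with any single array left out.

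Neither exporter gene passed in SIRT1Tg or EX livers. Abcg5 read 9.38, 10.17 and 10.40 in SIRT1Tg livers and 10.09, 10.28 and 10.87 in EX livers, and Abcg8 read 8.36, 8.97 and 9.23 in SIRT1Tg livers and 8.94, 9.33 and 9.79 in EX livers. Abcg5 changed by -0.31 ± 0.17 (adjusted p = 0.56) in SIRT1Tg, or -0.17 (adjusted p = 0.653) without array liver_1953_SiRT1, and by 0.09 ± 0.19 in EX. For Abcg8 the values were -0.27 ± 0.17 (adjusted p = 0.594), -0.32 (adjusted p = 0.453) and 0.29 ± 0.19.

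Abcb11, the bile salt export pump, and Slc10a1, the uptake carrier, did not pass in any comparison with WT. Abcb11 read 7.60, 9.07 and 9.59 in SIRT1Tg livers, 9.12, 9.40 and 9.61 in CR livers and 8.48, 8.67 and 9.01 in EX livers, against 8.08, 8.58 and 9.62 in WT livers. The lowest of these is array liver_1953_SiRT1, and without it the SIRT1Tg change moved to 0.44 (95% interval 0.07 to 0.80, adjusted p = 0.321), against 0.22 ± 0.21 with it. The change was 0.28 ± 0.24 in CR and 0.41 ± 0.24 in EX. Series B read 0.76 ± 0.21 above series A for Abcb11 (unadjusted p = 0.00158, adjusted p = 0.15), so its CR and EX values rest on that term. Without array liver_1953_SiRT1 the term was 0.55, and the changes were 0.39 ± 0.19 in CR and 0.31 ± 0.19 in EX. Slc10a1 read 5.43 to 6.33 in SIRT1Tg, 5.74 to 6.59 in CR and 5.83 to 6.32 in EX livers, against 5.49 to 6.52 in WT livers, and its changes were -0.09 ± 0.18 (the same without array liver_1953_SiRT1), 0.37 ± 0.20 and -0.13 ± 0.20.

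Nr1h4, the bile acid receptor, read 9.93, 10.79 and 10.94 in SIRT1Tg livers, 10.87, 11.05 and 11.16 in CR livers and 10.30, 10.43 and 11.18 in EX livers, against 10.54, 10.79 and 11.09 in WT livers. All 6 CR arrays were above the WT mean, with overlap. The changes were -0.17 ± 0.16 in SIRT1Tg (-0.01 without array liver_1953_SiRT1), 0.21 ± 0.18 in CR and -0.20 ± 0.18 in EX, and none passed. Nr0b2, which Nr1h4 induces, gave no measured level: its signals of 4.12 to 4.37 over all groups are those of an undetected probe.

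Set directly against SIRT1Tg livers, CR livers differed in both exporter genes and in Cyp8b1. These 3 of 9 passed, against 2.53% of all features, and the same 3 passed without array liver_1953_SiRT1, against 6.05%. Abcg5 was higher in CR by 1.21 ± 0.19 (adjusted p = 0.000828) and Abcg8 by 1.0 ± 0.19 (adjusted p = 0.00428), while Cyp8b1 was lower, at -1.15 ± 0.21 (adjusted p = 0.00388). Without array liver_1953_SiRT1 the values were 1.14, 1.01 and -1.16. For these 3 genes no CR array overlapped a SIRT1Tg array, which 4.51% of all features also showed. All 3 calls held in 24 of 24 fits with an array left out, and all 3 were lost with median in place of quantile scaling. No liver slide held arrays of both CR and SIRT1Tg, so no direct difference within a slide can be given for this comparison.

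In CR against EX livers, 1 of 9 passed, against 0.13% of all features. Cyp8b1 was lower in CR, at -1.46 ± 0.27 (0.364 of the EX level, adjusted p = 0.0194). Cyp8b1, Abcg5 and Abcb11 did not overlap between these groups, which 3.04% of all features also showed. CR and EX share no number series, so this value rests on the series term, which for Cyp8b1 was -0.02 ± 0.19. With single arrays left out the change ran from -1.61 to -1.32 and 21 of 24 fits stayed under 0.05, all but those without liver_2207_SiRT1, liver_2223_SiRT1 or liver_2232_WT (adjusted p up to 0.0567). On the 5 slides with an array of each, CR minus EX for Cyp8b1 was -1.33, -0.82, -2.37, -1.89 and -1.04 (mean -1.49 ± 0.63 SD). Cyp27a1 was likewise lower in CR on 5 of 5 slides (-0.31 ± 0.15), and Abcg5 (1.10 ± 0.51), Abcg8 (0.78 ± 0.43) and Abcb11 (0.56 ± 0.29) were higher on 5 of 5. For each of these 5 genes the exact two-sided sign-flip permutation p was 0.0625, the smallest that 5 slides allow. Any feature with the same sign on all 5 slides reaches this p. The share of all features that did so is not given, so these counts do not set the genes apart. CR and EX differ in number series on every slide, so condition and series cannot be told apart in these values. With the series term, the fit gave 0.81 ± 0.24 (SE) for Abcg5, 0.43 ± 0.24 for Abcg8 and -0.42 ± 0.15 for Cyp27a1. For Abcb11 it gave -0.13 ± 0.30, the opposite sign to its slide values, but 0.08 ± 0.24 without array liver_1953_SiRT1. None of these passed. In EX against SIRT1Tg livers 0 of 9 passed in limma, against 0.682% of all features, and 4 of 9 were under an unadjusted p of 0.05 (21.1% of all features). Cyp7b1 came nearest there, at 1.13 ± 0.31 (adjusted p = 0.0785, or 0.15 without array liver_1953_SiRT1).

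Across the 24 liver arrays the exporter genes varied together. Over the 23 arrays other than liver_1953_SiRT1, Pearson's r between Abcg5 and Abcg8 was 0.87, and 0.63 after group and series means were removed. With array liver_1953_SiRT1 it was 0.85. Arrays share hybridisation and group differences, so these are descriptions. Between Abcg5 and Cyp8b1 r was -0.74, and 0.02 after group and series means were removed, so that relation lies between groups. Cyp7a1 correlated with Cyp27a1 at 0.51, with Cyp8b1 at 0.35 and with Cyp7b1 at 0.14.

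**Figure D4:**
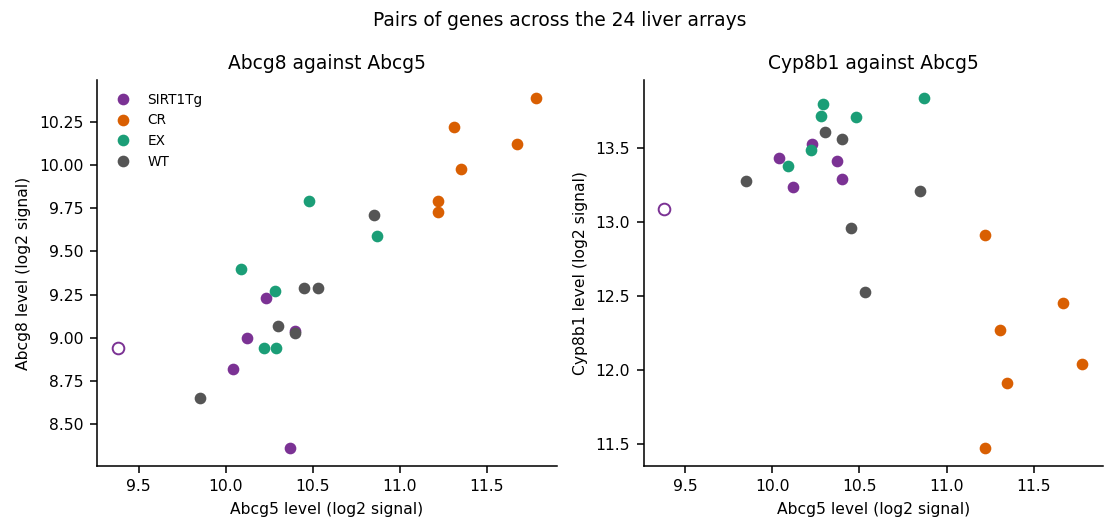
Liver levels (log2 signal) of Abcg8 and of Cyp8b1 against Abcg5, with 1 point for each of the 24 arrays coloured by group and array liver_1953_SiRT1 open. The 6 CR arrays lie at the upper right for Abcg8 and at the lower right for Cyp8b1.

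Of all liver features, those most like Abcg5 over 23 arrays were Tbcel (r = 0.90), Uvrag (0.88), Abcg8 (0.87), Wdr45b (0.84) and Rpa1 (0.84). After group and series means were removed, these 5 gave 0.58 to 0.68. Those most like Abcg8 were Abcg5, Srebf1 (0.82), Abcc6 (0.82), Thrsp (0.81) and Ngef (0.81), at 0.38 to 0.63 after removal. Cyp8b1 was followed by Apba3 (0.81), Tm9sf4 (0.80), Slc1a2 (0.79), Ackr2 (0.79) and Depp1 (0.76), but after removal these gave only 0.24, 0.53, 0.25, 0.43 and 0.20. The closest to Cyp7a1 were weaker: Spag1 (0.65), Ppargc1a (0.64), an unnamed probe (0.63), Arrdc4 (0.62) and Spire1 (0.62), and Spire1 was at 0.33 with array liver_1953_SiRT1 included. After removal these 5 gave 0.54 to 0.74.

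The other genes of the pathway came from 4 lists, and none of their tested members passed against WT. Of all features, 0.0602% passed in SIRT1Tg, 0.271% in CR and 0.0201% in EX against WT. Against SIRT1Tg, 2.53% passed in CR and 0.682% in EX, or 6.05% and 0.16% without array liver_1953_SiRT1. Of 13 tested among 16 other enzymes of bile acid synthesis and conjugation, 0 passed in any comparison with WT. Over these 13 the median change was -0.04 in SIRT1Tg, 0.00 in CR and 0.11 in EX. In SIRT1Tg livers the lowest p belonged to Cyp2c70, the mouse hydroxylase that makes muricholic acids, at -0.82 ± 0.20 (adjusted p = 0.146) and Hsd3b7, an early dehydrogenase of the pathway, at -0.45 ± 0.13 (adjusted p = 0.215), each below the WT mean in 6 of 6 arrays. Without array liver_1953_SiRT1 these changes were -0.82 and -0.32. In CR the lowest p belonged to Cyp2c70 (0.42 ± 0.23) and the acyl-CoA synthetase Slc27a2 (-0.32 ± 0.20). In EX the lowest p belonged to the oxysterol hydroxylase Cyp39a1 (0.98 ± 0.33) and Cyp2c70 (-0.54 ± 0.23). Between CR and SIRT1Tg, Cyp2c70 passed at 1.23 ± 0.23 (adjusted p = 0.00353), and Hsd3b7 passed only without array liver_1953_SiRT1 (adjusted p = 0.0227). Between EX and SIRT1Tg, Slc27a5, the bile acid-CoA ligase, passed at 0.59 ± 0.12 (adjusted p = 0.0315), a call lost without array liver_1953_SiRT1 (0.114).

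Of 11 tested among 17 other transporters, 0 passed in any of the 6 comparisons. Medians were -0.03 in SIRT1Tg, 0.04 in CR and 0.14 in EX against WT. Slc22a7, an organic anion carrier, had the lowest p in all 3, at -0.53 ± 0.14 in SIRT1Tg, -0.53 ± 0.16 in CR and -0.45 ± 0.16 in EX, below the same WT mean in 6 of 6 arrays each time. The efflux pump Abcc3 came next in SIRT1Tg (0.45 ± 0.20) and EX (0.48 ± 0.23), and the phospholipid flippase Abcb4 in CR (-0.29 ± 0.13). Abcc3 and Abcb4 also had the lowest p between CR and SIRT1Tg (-0.72 and -0.37) and between CR and EX (-0.75 and -0.39). Abcc2 and Atp8b1 had the lowest p between EX and SIRT1Tg (0.34 and 0.39), but read 0.1 and 0.06 without array liver_1953_SiRT1.

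Of 16 tested among 22 receptors and regulators of bile acid genes, 0 passed against WT. The clock output factor Dbp had the lowest p in CR, at 2.28 ± 0.65 (adjusted p = 0.218), with its repressor counterpart Nfil3 at -0.80 ± 0.24 (adjusted p = 0.261). In SIRT1Tg the clock repressor Nr1d1 was at -1.04 ± 0.33 and Dbp at -1.41 ± 0.58, and in EX the receptor Nr1i3 was at -0.43 ± 0.15 and the coactivator Ppargc1a at 0.75 ± 0.27. Between CR and SIRT1Tg, Dbp (3.69 ± 0.65, adjusted p = 0.00242), Nr1d1 (1.5 ± 0.37, adjusted p = 0.0305) and Nfil3 (-1.14 ± 0.24, adjusted p = 0.0101) passed. These clock genes passed in the same comparison as Abcg5, Abcg8 and Cyp8b1, as did 2.53% of all features. The part of the clock genes in those results was not tested. Without array liver_1953_SiRT1 Nr1h3, the liver oxysterol receptor, passed too at 0.54 (adjusted p = 0.033), and Ppara at -0.66 (adjusted p = 0.0316). Between EX and SIRT1Tg the lowest p were those of Nr5a2 (0.63) and Nr1i3 (-0.46), at 0.44 and -0.44 without that array. Between CR and EX they were those of Dbp (3.73, adjusted p = 0.0566) and Nfil3 (-1.24, adjusted p = 0.0846).

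Of 10 tested among 20 LXR targets and genes of cholesterol handling, 0 passed against WT. Srebf1, a lipogenic factor and LXR target, came nearest in CR, at 0.93 ± 0.31 (adjusted p = 0.37) and above the WT mean in 6 of 6 arrays, and Abcg1, a sterol exporter of other cells, was at 0.32 ± 0.22. In SIRT1Tg the lowest p were those of the HDL receptor Scarb1 (-0.26 ± 0.16) and Abcg1 (-0.23 ± 0.20), and in EX those of Abcg1 (-0.51 ± 0.22) and Stard3 (-0.32 ± 0.14). Without array liver_1953_SiRT1 the SIRT1Tg changes were -0.16 for Scarb1 and -0.47 for Abcg1. Between CR and SIRT1Tg, Srebf1 passed at 1.13 ± 0.31 (adjusted p = 0.0459), and Abcg1 passed at 0.69 without array liver_1953_SiRT1 (adjusted p = 0.0179). Scarb1 (0.55) and Npc2 (-0.64) had the lowest p between EX and SIRT1Tg, and Abcg1 (0.83) and Npc2 (0.72) between CR and EX. Between EX and SIRT1Tg without array liver_1953_SiRT1, Scarb1 was at 0.4 and Npc2 at -0.49.

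No marker of the liver cell types passed against WT. Between CR and SIRT1Tg, Slc1a2, 1 of 8 pericentral hepatocyte markers, passed at -0.68 (adjusted p = 0.0361), and without array liver_1953_SiRT1 Lrat, 1 of 6 stellate markers, did at 0.48 (adjusted p = 0.0477). Both are named because they passed, where 2.53% of all features did, or 6.05% without that array. With all arrays, 5 of the 8 pericentral markers were above 0 in this comparison (median 0.03), unlike Slc1a2. Of the 6 stellate markers, 5 were above 0 (median 0.1), as Lrat was. The 8 Kupffer and macrophage markers on the array summed to 10.24 to 11.70 in CR livers, 9.80 to 11.05 in SIRT1Tg livers (9.80 to 10.71 without array liver_1953_SiRT1) and 9.78 to 11.87 in WT livers. All 7 tested had a higher mean in CR than in SIRT1Tg, with a median difference of 0.52 (0.59 without that array) and 0 past the threshold, and Cd5l was not detected on any array. Stellate markers, 6 on the array, summed to 11.74 to 12.02 in CR and 11.35 to 12.03 in WT livers, and endothelial markers, 7 on the array, to 10.82 to 11.41 and 10.58 to 11.34. In CR against WT the change was above 0 for 6 of 6 tested stellate markers (median 0.21), 5 of 6 endothelial (0.26) and 6 of 7 Kupffer markers (0.25), where the median of all features was 0.01. Those of lowest p were Oit3 (0.41, limma adjusted p = 0.636), Stab1 (0.27, adjusted p = 0.726) and Reln (0.32, adjusted p = 0.744), each under 0.05 before adjustment. Their part in the CR results was not tested.

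In the other tissues most of these genes were near background. Levels here were normalised over all 96 arrays. Cyp7a1 was detected on 0 of 24 muscle, 1 of 24 BAT and 0 of 24 eWAT arrays, and in WT mice its liver signal was at least 25.5-fold, 27.8-fold and 30.9-fold that of muscle, BAT and eWAT. The bound for Cyp8b1 against eWAT was at least 406-fold, and that for Nr1h4 against muscle at least 66.7-fold. Abcg8 stood at least 23.3-fold over muscle, 25.5-fold over BAT and 28.3-fold over eWAT. These bounds apply where the probe was not detected on any WT array of the tissue, and set the liver mean against the lowest signal above background on those arrays.

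Cyp27a1 was the exception, detected on all 96 arrays. In WT mice it read 11.51 ± 0.17 in liver (SD, n = 6). Its WT level was 9.81 ± 0.23 in muscle, 9.43 ± 0.32 in eWAT and 9.19 ± 0.21 in BAT. Cyp7b1 and Nr1h4 were also detected on all 24 eWAT arrays, at 5.35 ± 0.46 and 5.20 ± 0.46 in WT, against 11.45 ± 0.47 and 10.71 ± 0.21 in WT liver. Abcg5 was detected on 22 of 24 eWAT arrays, at 4.65 ± 0.32 in WT, against 10.34 ± 0.30 in WT liver. In these tissues 1 of the genes was tested in muscle, 4 in BAT and 5 in eWAT, and 0 passed in any comparison with WT. All features there passed at 0.0317% in SIRT1Tg, 0% in CR and 2.03% in EX muscle, 0.389%, 0.269% and 4.6% in BAT, and 0.0594%, 3.61% and 0.00848% in eWAT. The lowest p was that of Cyp27a1 in CR muscle, at -0.60 ± 0.16 (adjusted p = 0.279).

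**Figure D5:**
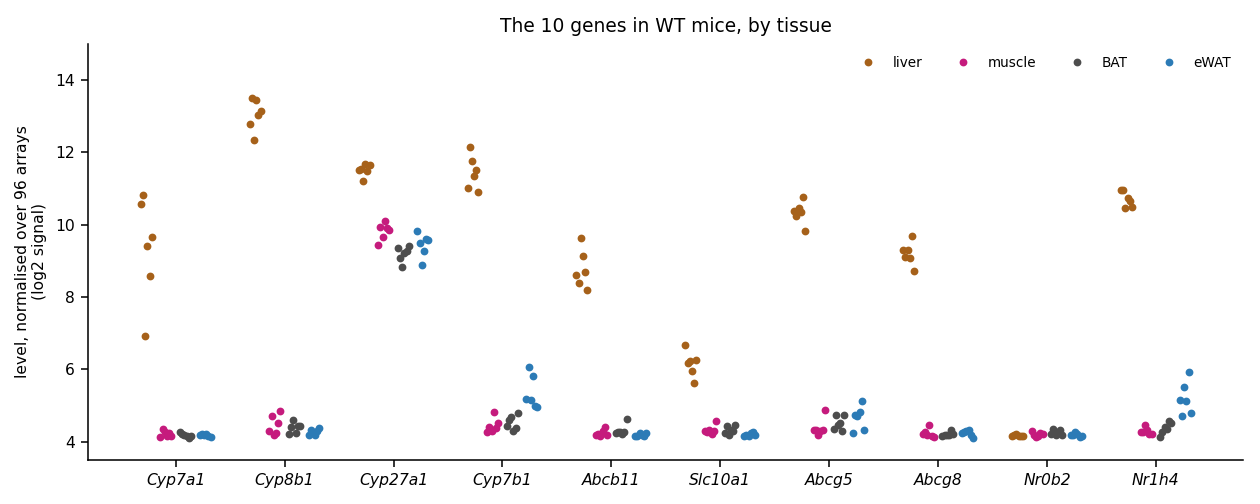
Level (log2 signal, normalised over 96 arrays) of each gene on the 6 WT arrays of liver, muscle, BAT and eWAT; each point is an array. Cyp27a1 is above background in all 4 tissues, whereas the other genes lie near the floor outside liver, Cyp7b1 and Nr1h4 in eWAT excepted, and Nr0b2 lies there in liver too. Abcg5 was low in eWAT but detected on 4 of the 6 arrays.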

How the data were processed

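The deposited file holds the probe signal intensity of 96 arrays without normalisation, made by the authors. GenomeStudio and Partek are the tools listed, per the submitters' processing notes, without versions. The deposited series matrix holds log2 values whose sorted columns differed by at most 0.0037, and was used as an alternative. The intensities carry no detection p-values, so limma's neqc was not used. In R 4.3.3 with limma 3.58.1, each array's background was the mode of its log2 density (bandwidth 0.03), then normexp (offset 16) and quantile normalisation of the 24 liver arrays. Probes detected (upper 0.05 tail) on 6 of 24 arrays were kept, 13206 in all, and the probe of highest mean stood for a gene. Condition and number series were fitted (lmFit, eBayes), with Benjamini-Hochberg adjustment over 9973 features and a threshold of 0.05. Gene symbols came from the platform annotation, updated by gene ID through RefSeq GRCm38.p6 for 23962 probes. The genes and lists were chosen with earlier results of these data known. Named from each list were genes past the threshold or, where none passed, the 2 of smallest p; likeness to Cyp7a1, Cyp8b1, Abcg5 and Abcg8 was the 5 highest Pearson r. Number of arrays limits precision. Replicates are animals, by number. The fit was tested on simulated data. Other matrix, background, scaling, filter, probe, series, slide and weight choices, and each array left out, were tried.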

Additional observations from a re-analysis of the deposited data

Results flagged for a closer look

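Abcg5 read 9.38 on the array liver_1953_SiRT1, while the other 5 SIRT1Tg arrays read 10.04 to 10.40, so that array lay far from its group. It was the only such array among 44 groups of 6 arrays checked for these genes, and chance alone marks about 1 group in 20. This is the array with few detected probes and low Sirt1. The changes of the tested genes in SIRT1Tg against WT are also given without it in the report.

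Cyp27a1 differed from WT by 0.39 in EX liver and by -0.11 in EX muscle, with every EX array on one side of the WT mean in liver and on the other in muscle. This difference between tissues was not tested, and the probe used for the gene was not the same in the 2 tissues.

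Cyp8b1 differed from WT by 0.23 in CR eWAT and by -1.0 in CR liver, in opposite directions on all CR arrays. This difference was not tested either, and in eWAT the probe was detected on 10 of 24 arrays.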

How the results depend on the processing

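No paired analysis was possible because the liver groups compared share no animal number to pair by. Slide, which 5 CR and 5 EX arrays share, was used instead: with slide as a random block Cyp8b1 was again the gene called in CR against EX, and the differences within slides are in the report. In CR against WT the 2 genes past the threshold became 0 with median scaling, 0 with no detection filter, 1 with every probe as its own feature and 1 in series B alone, and 0 to 2 with single arrays left out. The Abcg5 call was lost on leaving out liver_2207_SiRT1, liver_2222_SiRT1, liver_2223_SiRT1, liver_2230_CR, liver_2241_CR, liver_2242_CR, liver_2245_CR, liver_1970_EX, liver_1972_EX, liver_1960_WT, liver_1961_WT, liver_2226_WT or liver_2231_WT (0.84 to 0.93, adjusted p 0.0506 to 0.135). The Cyp8b1 call was kept only without liver_1953_SiRT1, liver_1955_SiRT1, liver_2239_CR, liver_1976_EX, liver_1959_WT or liver_2226_WT, and the other 18 gave -1.07 to -0.86 (adjusted p 0.0515 to 0.226). Abcg8 passed with no number series term (0.87), array weights (0.77) and the joint fits of 4 tissues with slide (0.74) and without it (0.72). For EX against WT the count was 1 with slide as a fixed term. For CR against SIRT1Tg it became 0 with median scaling. For EX against SIRT1Tg it became 2 with slide as a fixed term, 2 in the joint fit without slide, and 0 to 1 without single arrays (Cyp7b1 passed without liver_1961_WT). For CR against EX it became 0 with median scaling, 3 with no series term, 3 with slide fixed, 3 in the joint fit without slide, 2 with array weights, and 0 to 1 without single arrays. Over all features the alternatives called 0 to 189 in SIRT1Tg, 8 to 166 in CR and 0 to 124 in EX against WT, and 49 to 1480, 0 to 1236 and 1 to 376 in CR against SIRT1Tg, EX against SIRT1Tg and CR against EX. Without single arrays these were 0 to 21, 5 to 43, 0 to 4, 96 to 603, 0 to 449 and 1 to 71.

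Signs that turned belong to changes that did not pass. Median scaling moved the median of all features to -0.19 in SIRT1Tg and 0.19 in EX against WT and to 0.15 in CR against SIRT1Tg. It gave -0.15 for Cyp7a1, -0.27 for Cyp8b1, -0.32 for Cyp27a1 and -0.13 for Abcb11 in SIRT1Tg, 0.10 for Slc10a1 and 0.11 for Nr1h4 in EX, and 0.15 for Cyp27a1 in CR against SIRT1Tg. Series A alone gave -1.10, -0.02 and -0.14 for Cyp7a1, Cyp8b1 and Cyp27a1 in SIRT1Tg and -0.34 for Cyp7a1 in EX. Series B alone gave 0.11 for Slc10a1 and 0.07 for Nr1h4 in SIRT1Tg, 0.09 for Cyp27a1 in CR and -0.33 for Cyp7a1 in CR against SIRT1Tg. With no series term Cyp27a1 in CR was 0.03, Cyp7b1 and Abcg5 in EX were 0 and -0.03, and Cyp7a1 in CR against SIRT1Tg was -0.09. Slide as a fixed term gave 0.09 for Cyp27a1 in CR, and array weights gave -0.09 for Abcg5 in EX and -0.06 for Abcb11 in CR against SIRT1Tg. With single arrays left out, in SIRT1Tg against WT Cyp7a1 ran from -0.21 (liver_2226_WT) to 0.53, Cyp8b1 from 0 (liver_2226_WT) to 0.23 and Slc10a1 from -0.20 to 0 (liver_1959_WT). In CR against WT Cyp7a1 ran from -0.12 (liver_2226_WT) to 0.93 and Cyp27a1 from -0.16 to 0.02 (liver_2242_CR). In EX against WT Cyp7a1 ran from 0 (liver_1969_EX) to 0.73, Slc10a1 from -0.20 to 0 (liver_1959_WT) and Abcg5 from -0.05 (liver_1960_WT) to 0.15. In CR against SIRT1Tg Abcb11 ran from -0.13 (liver_2207_SiRT1) to 0.15. Leaving out liver_1953_SiRT1 turned Abcb11 to 0.08 in CR against EX. It also turned Cyp7a1 to -0.17 and Abcb11 to -0.13 in EX against SIRT1Tg. The cause was not tested. Signal over background limits Nr0b2 and Slc10a1. It also limits genes from the lists that were dimmer than Slc10a1, whose mean was 6 in WT livers. Among these were Cyp39a1 (4.78), Abcg1 (5.15), Scarb1 (5.03) and Srebf1 (5.04).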
